A study of Mus musculus with 6 samples.

Results

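Hox genes encode homeodomain transcription factors that give cells their position along the head-to-tail axis of the embryo. In the mouse they lie in 4 clusters, Hoxa, Hoxb, Hoxc and Hoxd. Of these genes 36 were measured here by an array row that names no other gene: 9 in Hoxa, 10 in Hoxb, 9 in Hoxc and 8 in Hoxd. They were picked by symbol out of 22179 genes. The rule used no measured value, but it was set with earlier results of these data known. Where a gene had several rows, the row whose mean was highest was taken. Hoxa11 and Hoxd4 appeared only in rows shared with another gene.

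The cells came from mouse small-cell lung cancer, an aggressive neuroendocrine tumour. Every animal carried conditional knockout alleles of Rb, p53 and p130 together with a GFP reporter for Hes1, and received Adeno-Cre into the trachea. Both populations share these alleles, and whether the sorted cells had lost the genes was not measured here. Tumours were taken 5 to 6 months later, and a pool from 3 mice was sorted into GFP-high cells and into GFP-negative cells, whose status is labelled negative / low. Each population was hybridised as 3 samples to Affymetrix Mouse Gene 2.0 ST arrays, 6 arrays in all. The promoter that drives Cre, the lung cells it entered and the ages of the animals are not stated in the labels. The sample titles call the replicates biological. The source label names a single mouse where the protocol names a pool, and whether the replicates are separate pools is not given. The p-values measure the spread between these samples, and how much of it is technical is not known.

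Within a cluster, Hox genes are numbered by paralogue group, from the genes that are switched on early and towards the head (group 1) to those switched on late and towards the tail (group 13). Neighbouring genes of a cluster are often active together. Retinoic acid and Cdx factors switch clusters on during development, MLL and trithorax proteins keep them active, Polycomb proteins keep them silent, and TALE homeodomain proteins such as Meis and Pbx bind DNA together with Hox proteins. In the developing lung, anterior and middle Hox genes, Hoxa5 and Hoxb5 among them, are known for their expression in the mesenchyme around the growing airways.

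The promoters of 3 Hoxb genes were available from RefSeq (GRCm38.p6). They are shown because Hoxb4 and Hoxb8 were lower in GFP-high cells and Hoxb1, at one end of the same cluster, did not pass the test. Each is the 250 bases before the gene's start on the plus strand, Hoxb4 at chr11:96318017-96318266, Hoxb8 at chr11:96281655-96281904 and Hoxb1 at chr11:96365508-96365757. Capitals mark a match to any of the 5 motifs described further on.
Hoxb4: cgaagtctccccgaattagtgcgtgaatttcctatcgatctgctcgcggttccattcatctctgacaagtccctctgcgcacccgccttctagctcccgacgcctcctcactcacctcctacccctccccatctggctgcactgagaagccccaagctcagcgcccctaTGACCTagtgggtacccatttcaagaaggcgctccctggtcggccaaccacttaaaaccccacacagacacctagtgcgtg
Hoxb8: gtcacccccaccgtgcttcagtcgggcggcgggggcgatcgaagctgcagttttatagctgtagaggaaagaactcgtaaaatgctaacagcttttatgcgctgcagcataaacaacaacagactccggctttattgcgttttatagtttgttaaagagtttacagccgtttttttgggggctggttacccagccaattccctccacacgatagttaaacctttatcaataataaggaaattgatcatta
Hoxb1: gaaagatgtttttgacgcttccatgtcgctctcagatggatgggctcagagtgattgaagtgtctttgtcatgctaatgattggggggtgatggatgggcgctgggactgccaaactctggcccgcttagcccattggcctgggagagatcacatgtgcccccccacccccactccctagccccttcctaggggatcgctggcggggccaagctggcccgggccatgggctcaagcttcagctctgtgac
The capitals in Hoxb4 are TGACCT, the reverse complement of AGGTCA, the core site of retinoic acid receptors and many other nuclear receptors. The other promoters held no match. G and C made up 58% of the Hoxb4 sequence, 44.4% of Hoxb8 and 59.2% of Hoxb1.

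The clusters also hold microRNA genes, which are shown with the seed (bases 2 to 8) in capitals because the seed is the part that chooses targets. Mature 5p sequences are from RefSeq. The miR-10 genes lie in Hoxb (Mir10a) and Hoxd (Mir10b), and the miR-196 genes in Hoxb (Mir196a-1), Hoxc (Mir196a-2) and Hoxa (Mir196b).
mmu-miR-10a-5p: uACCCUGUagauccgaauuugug
mmu-miR-10b-5p: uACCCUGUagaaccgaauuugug
mmu-miR-196a-5p: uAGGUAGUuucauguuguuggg
mmu-miR-196b-5p: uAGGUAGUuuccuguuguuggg
The miR-10 pair share a seed and differ by 1 base, U12A from miR-10a to miR-10b, counted from the 5′ end. The miR-196 pair share another seed and differ by A12C from miR-196a to miR-196b. Mir196a-1 and Mir196a-2 give the same mature 5p sequence.

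The sort and the tissue label were checked first. Hes1, a repressor induced by Notch signalling and the gene that the reporter follows, read 10.49, 10.27 and 10.43 in GFP-high replicates 1 to 3 and 6.93, 6.98 and 6.65 in GFP-negative replicates 1 to 3 on the log2 scale of the arrays. It was 11.7-fold higher in GFP-high cells (adjusted p = 4.87e-07). Neuroendocrine markers were present in both populations and 8 of the 8 measured fell in GFP-high cells. Of the markers of other lung cells, 8 of 8 club and 8 of 8 alveolar type 1 genes and 9 of 10 alveolar type 2 genes rose. So did 5 of 6 mesothelial genes. Ciliated markers split (1 higher and 2 lower of 7), as did endothelial (1 and 2 of 10) and fibroblast and smooth muscle markers (1 and 1 of 13). Endothelial fold changes ran from -2.07 to 3.87 on the log2 scale. Over all genes, 13% were called higher and 17.0% lower. Among 9 leukocyte markers limma called 0, 0 had an unadjusted p under 0.05, and 0 were called without moderation. Across all genes, the arrays of a group correlated at 0.987 to 0.991 and arrays of different groups at 0.918 to 0.940.

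Most measured genes of the B cluster were lower in GFP-high cells, and no gene of the other clusters passed the test as lower. The 7 neighbours Hoxb2 to Hoxb8 fell by 1.21 to 2.76 on the log2 scale, which is 2.31-fold to 6.77-fold. In a test without limma's moderation of the variance, Hoxb2, Hoxb3 and Hoxb5 kept their calls, and the adjusted p was 0.0509 for Hoxb4, 0.133 for Hoxb6, 0.0554 for Hoxb7 and 0.0905 for Hoxb8. At the ends of the cluster, Hoxb1 and Hoxb9 did not pass the test and Hoxb13 was slightly higher. Of the 26 measured Hoxa, Hoxc and Hoxd genes, Hoxc10 alone passed, 1.37-fold higher. These 26 genes started from lower levels and may have had less room to fall. Their GFP-negative means were 5.70 (Hoxa4) or below, against 6.15 (Hoxb7) to 9.69 (Hoxb5) for the Hoxb genes called lower. A call is an adjusted p under 0.05 in limma over all 22179 genes.

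Read against the whole array, 7 of 36 Hox genes (19.4%) were called lower beside 17.0% of all genes, and 2 of 36 (5.56%) higher beside 13% of all genes. The Hox family as a whole was thus called lower at about the rate of any gene. By cluster, Hoxb had 7 of its 10 genes (70%) called lower, and Hoxa, Hoxc and Hoxd had 0 of 9, 0 of 9 and 0 of 8. For those clusters the number lower at an unadjusted p under 0.05 was 0 in Hoxa, 1 in Hoxc (Hoxc13) and 0 in Hoxd, and the same numbers were called without moderation, where the Hoxb count dropped from 7 to 3. Each of the 7 fell by more than 1 on the log2 scale, a size that together with the call was reached by 6.02% of all genes. In the higher direction 0 Hox genes reached that size, beside 5.63% of all genes. The median log2 fold change was -1.45 in Hoxb, 0.17 in Hoxa, 0.16 in Hoxc and 0.14 in Hoxd, and 0.01 over all genes. The middle of all genes, from the lower to the upper quartile, ran from -0.26 to 0.22. The difference between clusters was not tested, because genes of a cluster are neighbours and not independent. The lower starting levels of Hoxa, Hoxc and Hoxd also limit the fall that could be seen there.

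**Figure D1:**
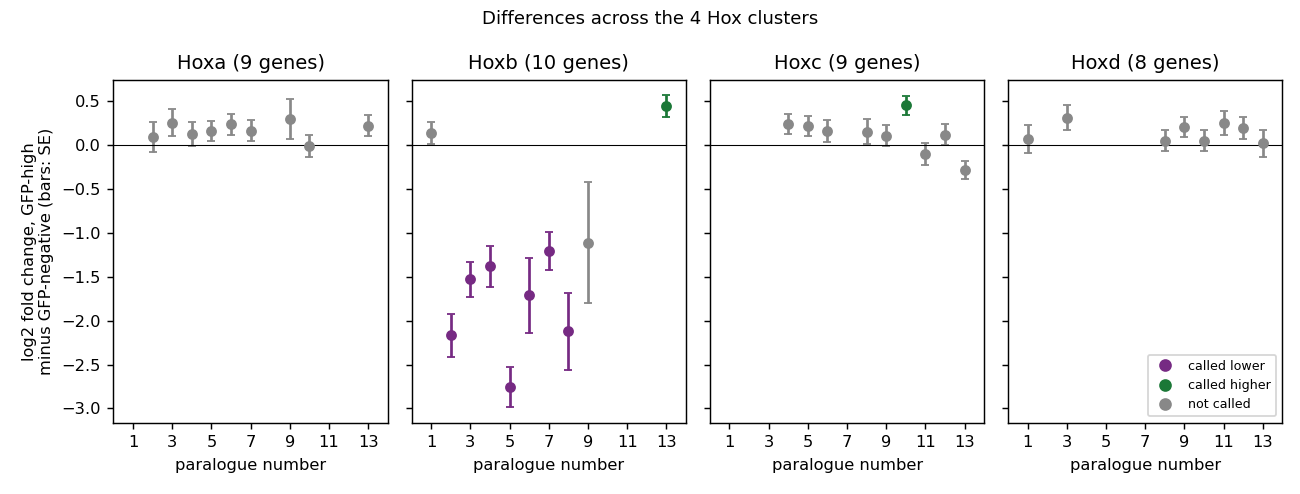
Log2 fold change (GFP-high minus GFP-negative, vertical axis) of each measured Hox gene against its paralogue number, 1 panel per cluster. Bars are standard errors from limma with n = 3 arrays per group, and colours show the calls. In Hoxb, 7 of 10 genes lie at -1.21 or below. Genes of the other clusters, with GFP-negative means of 5.70 (Hoxa4) or below, lie between -0.28 and 0.46.

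Hoxb5, a middle gene of the cluster known from lung branching and enteric nerve development, had the largest fold change among the Hox genes. GFP-high replicates 1 to 3 read 6.71, 6.68 and 7.40, and GFP-negative replicates 1 to 3 read 9.33, 9.89 and 9.85, the order used for all genes that follow. Every GFP-high value lay below every GFP-negative one. The fold change on the log2 scale was -2.76 ± 0.23 (SE, n = 3 per group), 6.77-fold lower, with an adjusted p of 4.72e-05. A further row for Hoxb5 read 6.23, 6.02 and 6.00 against 6.57, 6.32 and 6.73. Its fold change was smaller, -0.46 ± 0.14 (SE), with an adjusted p of 0.0378 in a fit of every row, so the rows agree in direction and not in size.

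Hoxb2, an anterior gene best known for patterning the hindbrain, read 6.54, 6.36 and 7.38 in GFP-high and 8.78, 9.05 and 8.96 in GFP-negative cells. The groups did not overlap, and the GFP-negative arrays lay within 0.27 of each other while GFP-high replicate 3 stood above its group. It fell by 2.17 on the log2 scale (SE 0.24, adjusted p = 0.000237). Its neighbour Hoxb3, which acts in hindbrain and thyroid development, read 5.16, 5.76 and 5.78 against 6.83, 7.18 and 7.28. Hoxb3 fell by 1.53 (SE 0.20, adjusted p = 0.00047). A row that names Hoxb3 and Hoxb2 together fell by 0.91 (SE 0.13, adjusted p = 0.000956 in the fit of every row). Hoxb4, known for expanding blood stem cells when overexpressed, read 5.05, 5.65 and 5.69 against 6.42, 6.87 and 7.24. It fell by 1.38 (SE 0.24, adjusted p = 0.00231), and GFP-high replicate 1 was the lowest array for both Hoxb3 and Hoxb4.

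**Figure D2:**
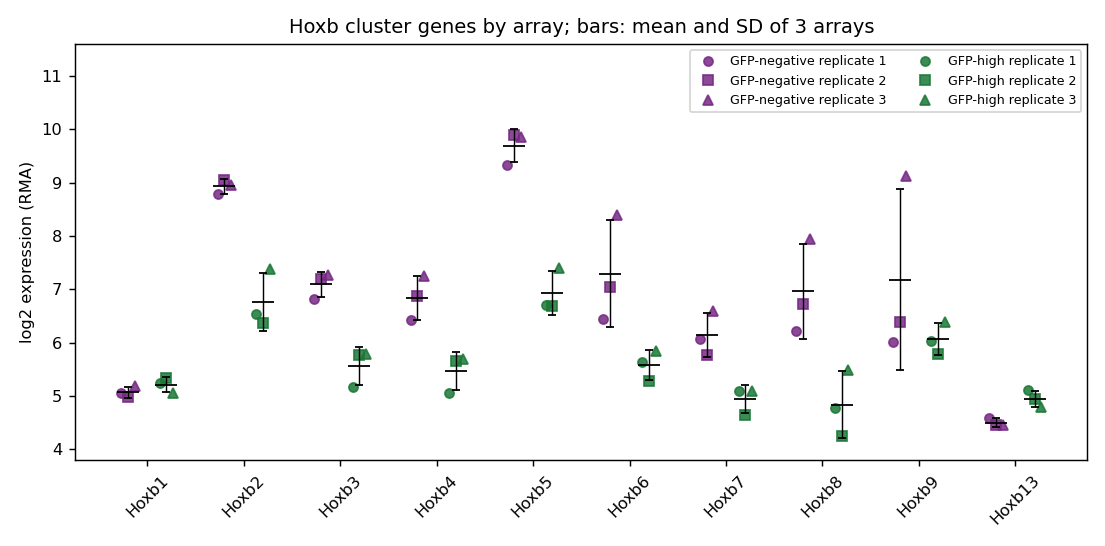
Log2 expression (RMA) of the 10 measured Hoxb genes in each of the 6 arrays, GFP-negative in purple and GFP-high in green. Lines with bars are the mean and SD of 3 arrays. From Hoxb2 to Hoxb8 the GFP-high arrays lie below all GFP-negative arrays; at Hoxb9 GFP-negative replicate 3, at 9.13, stands apart.

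Hoxb6, Hoxb7 and Hoxb8, middle genes that help pattern the trunk, fell as well, each with more spread among GFP-negative than among GFP-high arrays. Hoxb6 read 5.64, 5.28 and 5.84 in GFP-high and 6.43, 7.04 and 8.40 in GFP-negative cells. The groups did not overlap, and GFP-negative replicate 3 was well above the others. Hoxb6 fell by 1.71 (SE 0.43, adjusted p = 0.0155). Without GFP-high replicate 2 its adjusted p was 0.0614, and without GFP-negative replicate 3 its fold change was -1.15 with an adjusted p of 0.00708. Hoxb7 read 5.10, 4.63 and 5.09 against 6.07, 5.78 and 6.60 and fell by 1.21 (SE 0.22, adjusted p = 0.00318). Hoxb8, a gene also used to hold blood progenitors in an immature state, read 4.77, 4.25 and 5.49 against 6.21, 6.72 and 7.94. It fell by 2.12 (SE 0.44, adjusted p = 0.00635), again with replicate 3 the highest array of each group.

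The genes at the ends of the cluster were not called lower. Hoxb1, the most anterior, whose expression marks a single hindbrain segment, read 5.24, 5.34 and 5.05 in GFP-high and 5.06, 4.97 and 5.18 in GFP-negative cells. The groups overlapped, and the fold change of 0.14 had a 95% confidence interval from -0.14 to 0.42. The GFP-negative mean of Hoxb1, 5.07, was already near the GFP-high means of Hoxb7 (4.94) and Hoxb8 (4.84). A gene at that level may have little room to fall, so the interval cannot show whether Hoxb1 differs from its neighbours. Hoxb9, the next gene after Hoxb8 and known from rib and mammary gland patterning, read 6.03, 5.79 and 6.39 against 6.01, 6.39 and 9.13. Its fold change of -1.11 had an interval from -2.69 to 0.47 (adjusted p = 0.282), and without GFP-negative replicate 3 it was -0.13 (adjusted p = 0.697). Hoxb13, a posterior gene set apart from the others by a long gap and known as a prostate factor, read 5.10, 4.94 and 4.79 against 4.59, 4.45 and 4.45. It was 1.36-fold higher (adjusted p = 0.023), the called Hox gene closest to the threshold. Its mean lay in the lowest 30% of all genes, and its adjusted p was 0.0866 without GFP-high replicate 1, 0.0587 without GFP-high replicate 2, 0.0655 without GFP-negative replicate 2 and 0.0681 without GFP-negative replicate 3.

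By place in the cluster, limma called lower 3 of 4 measured Hoxb genes of paralogue groups 1 to 4. In groups 5 to 8 it called 4 of 4 lower. Of the 2 in groups 9 to 13, it called 0 lower and 1 higher. Among these 2, Hoxb9 had a fold change of -1.11 with an interval from -2.69 to 0.47. Of those 2, 0 had an unadjusted p under 0.05 in the lower direction, and 0 were called lower without moderation. Over all clusters, groups 1 to 4 had 3 of 10 genes (30%) called lower and groups 5 to 8 had 4 of 11 (36.4%). Groups 9 to 13 had 0 of 15, beside 17.0% of all genes, and the genes called lower were all in Hoxb. In groups 9 to 13, 1 gene, Hoxc13, was lower at an unadjusted p under 0.05, and 1 was called lower without moderation.

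The spread among GFP-negative arrays differed along the cluster and was wide at Hoxb6, Hoxb8 and Hoxb9. From highest to lowest array, Hoxb1 spanned 0.20, Hoxb2 0.27, Hoxb3 0.45, Hoxb4 0.82, Hoxb5 0.56, Hoxb6 1.97, Hoxb7 0.82, Hoxb8 1.73, Hoxb9 3.11 and Hoxb13 0.15 on the log2 scale. Spearman's rho between this span and the paralogue number was 0.88 over the 9 genes from Hoxb1 to Hoxb9 and 0.37 over all 10, since Hoxb13 had the narrowest span. Among GFP-high arrays these values were 0.10 and -0.091. They are descriptions with no test, as the genes are neighbours read on the same 3 arrays. Among the 7 genes that fell, GFP-negative replicate 3 was the highest of its group for 5 and GFP-negative replicate 2 for 2. GFP-high replicate 3 was the highest of its group for 6 of the 7.

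**Figure D3:**
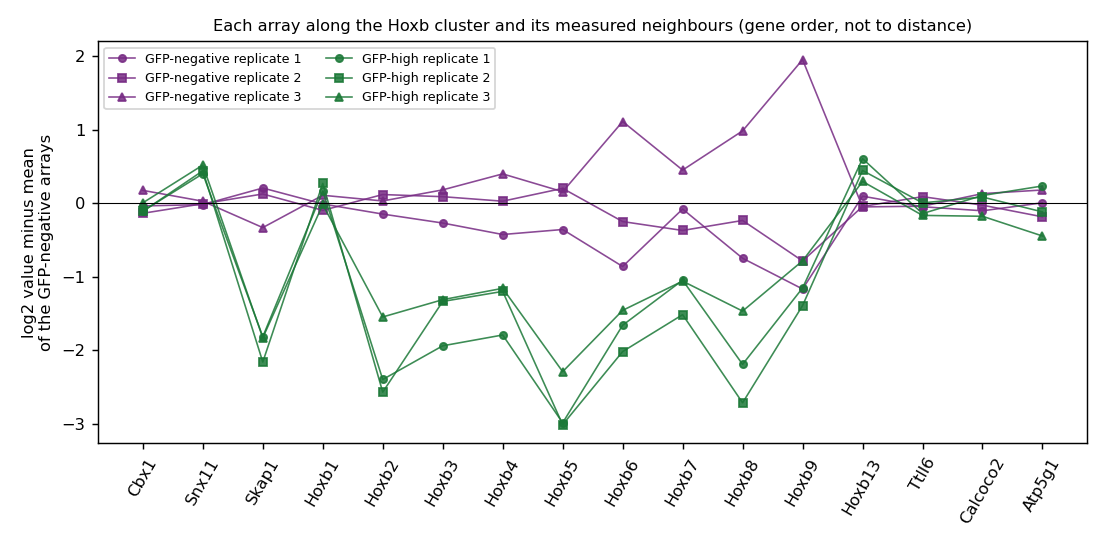
The log2 value of each Hoxb gene and of the 3 nearest measured genes on each side, 1 line per array, as a difference from the gene's GFP-negative mean; genes are in order and not to distance. The GFP-high arrays run below the GFP-negative ones from Hoxb2 to Hoxb8, and GFP-negative replicate 3 lies above its group from Hoxb6 to Hoxb9.

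Several cell-type markers were lower in GFP-high cells, as the Hoxb genes were. The median Hoxb difference from the GFP-negative mean was -1.72, -1.45 and -1.23 in GFP-high replicates 1 to 3. Over the 8 neuroendocrine markers it was -2.49, -2.74 and -1.74, so replicate 3 was the least reduced GFP-high array on both. The most reduced array differed, replicate 1 for Hoxb and replicate 2 for the markers. In GFP-negative replicates 1 to 3 the Hoxb median was -0.31, -0.07 and 0.29, and the neuroendocrine median was -0.04, 0.13 and -0.11. There, replicate 3 was the highest array for Hoxb and the lowest for the markers. Summed over the list after undoing the logarithm, neuroendocrine markers came to 1530 to 3121 in GFP-high and 9655 to 10674 in GFP-negative arrays, and Hoxb genes to 499 to 724 and 1634 to 3022. Scg3, a granin of secretory granules, read 7.80, 7.40 and 8.86 against 10.60, 10.79 and 10.53, and fell by 2.62 (SE 0.32, adjusted p = 0.000356). In sorted bulk samples, fewer cells of a type and less RNA per cell cannot be told apart.

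In the other direction, the summed level of club markers was 42120 to 46941 in GFP-high and 3742 to 6258 in GFP-negative arrays. For alveolar type 2 markers these sums were 15528 to 19030 and 943 to 1466, for alveolar type 1 markers 5568 to 6529 and 661 to 742, and for mesothelial markers 1525 to 1671 and 281 to 420. Krt19, a keratin that epithelial cells also make, carried most of the mesothelial sum, and without it the other 5 summed to 231 to 322 and 164 to 184. Fibroblast and smooth muscle markers, the class that carries many Hox genes in lung, summed to 928 to 1797 and 1800 to 2720. That gap came from Dcn: without it the other 12 summed to 467 to 574 in GFP-high and 397 to 436 in GFP-negative arrays, and 11 of the 13 fold changes were above 0, with a list median of 0.15. Dcn, a matrix proteoglycan, read 8.77, 8.86 and 10.26 against 10.41, 11.18 and 10.71, and fell by 1.47 (adjusted p = 0.0175). No marker of any list stood at 0, as the lowest value of the whole table was 0.989. A reading above 0 therefore does not show that a cell type was present. The part of these cell types in the Hoxb result was not tested.

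GFP-negative replicate 3, the array with the highest Hoxb6, Hoxb7, Hoxb8 and Hoxb9, was also the highest of its group for 4 of the 6 measured genes of the peripheral neuron and glia list, and GFP-negative replicate 1 for the other 2, Th and Isl1. This was not particular to that list. The same array was highest for 12 of 21 genes flanking the clusters, 9 of 20 Polycomb genes and 7 of 15 MLL and trithorax genes. It was highest for 1 of 8 club and 1 of 10 alveolar type 2 genes. The share over all genes was not counted. Prph, an intermediate filament of peripheral nerves, read 5.18, 5.17 and 5.64 in GFP-high and 6.71, 6.13 and 8.66 in GFP-negative cells. Tubb3, a neuronal tubulin, read 5.23, 4.81 and 5.57 against 6.11, 5.60 and 7.45. In this list 1 of 6 genes rose (16.7%) and 2 fell (33.3%), beside 13% and 17.0% of all genes. The summed level was 189 to 196 in GFP-high and 248 to 727 in GFP-negative arrays. Without Prph, the other 5 summed to 146 to 160 and 178 to 323, and the list median went from -0.49 to 0.07. Whether the genes of this list have a part in the posterior Hoxb values of GFP-negative replicate 3 was not tested.

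The Hoxa cluster, which includes Hoxa5, the Hox gene with the best known role in lung, showed no called gene. Its 9 fold changes ran from -0.01 (Hoxa10) to 0.30 (Hoxa9). Hoxa9, a gene known from blood progenitors and leukaemia, read 4.40, 4.76 and 4.66 in GFP-high and 4.86, 3.96 and 4.11 in GFP-negative cells. The groups overlapped because GFP-negative replicate 1 was the highest of all arrays, and the adjusted p was 0.384, or 0.0322 at a fold change of 0.57 without that array. Hoxa3, needed for thymus and parathyroid development, read 4.46, 4.02 and 3.96 against 3.88, 3.83 and 3.95, a difference of 0.26 ± 0.15 (SE, adjusted p = 0.25). Hoxa5 read 3.98, 3.95 and 3.75 against 3.72, 3.77 and 3.71, a difference of 0.16 whose interval ran from -0.10 to 0.42. The other Hoxa genes (Hoxa2, Hoxa4, Hoxa6, Hoxa7 and Hoxa13) lay between 0.10 and 0.24.

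Hoxc10, a posterior gene of limb motor neurons and fat, was the called gene of the Hoxc cluster. It read 5.20, 5.27 and 5.07 in GFP-high and 4.71, 4.78 and 4.68 in GFP-negative cells, without overlap. The difference was 0.46 ± 0.11 (SE, adjusted p = 0.0126), 1.37-fold higher. Hoxc13, a gene of hair and nail formation, was the Hox gene just outside the threshold. It read 4.77, 4.75 and 4.78 against 4.96, 5.08 and 5.09, a difference of -0.28 ± 0.10 (SE, adjusted p = 0.0783), again without overlap. The adjusted p of Hoxc13 was 0.0423 after quantile normalization, 0.0464 without the lowest 30% of genes and 0.0207 without moderation. The other Hoxc genes (Hoxc4, Hoxc5, Hoxc6, Hoxc8, Hoxc9, Hoxc11 and Hoxc12) differed by -0.10 to 0.25 and did not pass the test.

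In Hoxd, whose posterior genes shape limbs and genitalia, 0 of 8 genes were called by limma, 0 had an unadjusted p under 0.05 and 0 were called without moderation. The largest difference was in Hoxd3, an anterior gene of the neck vertebrae, which read 5.25, 5.36 and 4.98 against 5.00, 4.70 and 4.96. Its groups overlapped, with a difference of 0.31 ± 0.14 (SE, adjusted p = 0.139). Hoxd11, which acts in forearm and kidney development, read 4.38, 4.51 and 4.67 against 4.47, 4.14 and 4.21, a difference of 0.25 ± 0.13 (SE, adjusted p = 0.207). The other Hoxd genes (Hoxd1, Hoxd8, Hoxd9, Hoxd10, Hoxd12 and Hoxd13) lay between 0.02 and 0.21.

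Over these clusters together, 23 of 26 fold changes were above 0, beside 11295 of 22179 for all genes, and quantile normalization brought the medians of Hoxa and Hoxc down to 0.11 and 0.073. The 95% confidence intervals of the 26 genes ran from -0.52 to 0.82 at their outermost. A fall of the size of Hoxb2 or Hoxb5 lay outside each of them. The GFP-negative means of these genes were 5.70 (Hoxa4) or below, so they may have had little room for such a fall. Most were weakly expressed: 15 of the 26 lay in the lowest 30% of genes by mean level, against 1 of the 10 Hoxb genes. Fold changes near the floor of an array are compressed and the deposited values carry no detection call, so a low value does not show that a gene was off.

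Separation of the arrays was counted as well. Groups that did not overlap, with GFP-high below, were found for 7 of 10 Hoxb genes and 1 of the other 26, beside 24.6% of all genes. With GFP-high above, they were found for 9 of 36 Hox genes, beside 20.0% of all genes. In RefSeq, 12 of the 36 genes have models that overlap another named gene, such as Hoxb3 with Hoxb4 and Hoxb5 with Hoxb5os, and the labels do not say whether probes could tell their RNAs apart.

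Genes on both sides of the Hoxb cluster were compared next. Skap1, an adaptor of immune cell signalling and the nearest measured protein-coding gene beyond Hoxb1, read 5.94, 5.59 and 5.92 in GFP-high and 7.96, 7.88 and 7.42 in GFP-negative cells. It fell by 1.93 (SE 0.17, adjusted p = 6.79e-05), with Hoxb1 between it and Hoxb2 not passing the test. Further out, Snx11 differed by 0.45 (adjusted p = 0.0103) and Cbx1 by -0.07. On the posterior side, beyond Hoxb13, the differences were -0.10 for Ttll6 (adjusted p = 0.559), 0.00 for Calcoco2 and -0.11 for Atp5g1. Of the 21 measured genes on a list of those flanking all 4 clusters, 5 rose and 5 fell (23.8% each way, beside 13% and 17.0% of all genes), with a median of -0.11.

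Of the noncoding and microRNA genes within the clusters, 7 of 16 were measured by a row of their own. Of those 7, 1 rose (14.3%), near the 13% of all genes. That gene was Mir196a-2 in Hoxc, near Hoxc10, which read 3.58, 3.42 and 3.00 in GFP-high and 2.85, 2.54 and 2.84 in GFP-negative cells. Its difference was 0.59 ± 0.17 (SE, adjusted p = 0.0296), at a level near the floor. Mir196a-1 in Hoxb, which gives the same mature 5p sequence (shown above), differed by 0.29 ± 0.17 (SE, adjusted p = 0.254). A row naming Mir10a and Hoxb4 together differed by -0.17 (adjusted p = 0.461 in the fit of every row). Such rows read the gene of origin and not a mature strand. Hotair, an antisense RNA of Hoxc, differed by -0.07 (adjusted p = 0.735).

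Of the TALE cofactors, 5 of 11 measured fell (45.5%, beside 17.0% of all genes) and 1 rose (9.09%, beside 13%), with a median of -0.20. Meis2, a partner of Hox proteins on DNA, read 9.22, 8.94 and 9.96 in GFP-high and 11.68, 11.59 and 11.44 in GFP-negative cells. It fell by 2.20 (SE 0.24, adjusted p = 0.000184), and GFP-high replicate 3 was again the highest of its group. Pknox2 fell by 1.38 (adjusted p = 0.000824) and Meis3 by 1.26 (adjusted p = 0.000219). Pbxip1, which binds Pbx and keeps it from DNA, rose by 0.95 (adjusted p = 0.000432).

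The retinoic acid pathway, which acts upstream of anterior Hox genes in the embryo, had 6 of 17 measured genes higher (35.3%, beside 13% of all genes) and 3 lower (17.6%, near the 17.0% of all genes). Rarb, a receptor that is itself induced by retinoic acid, read 8.18, 7.93 and 7.66 in GFP-high and 4.97, 4.84 and 4.94 in GFP-negative cells. Its difference was 3.01 ± 0.15 (SE, adjusted p = 2.16e-06). Dhrs3, which turns retinaldehyde back into retinol and is also induced by retinoic acid, rose by 3.20 (adjusted p = 1.09e-06). Rdh10, which makes retinaldehyde, rose by 2.05 (adjusted p = 2.49e-05). Aldh1a3, which makes retinoic acid, read 7.50, 6.98 and 8.01 against 9.57, 10.11 and 9.09 and fell by 2.09 (SE 0.30, adjusted p = 0.000929). The other 8 genes were not called, among them Cyp26a1 (0.03, adjusted p = 0.867) and Cyp26b1 (0.20, adjusted p = 0.276). Whether retinoic acid signalling differed was not tested.

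**Figure D4:**
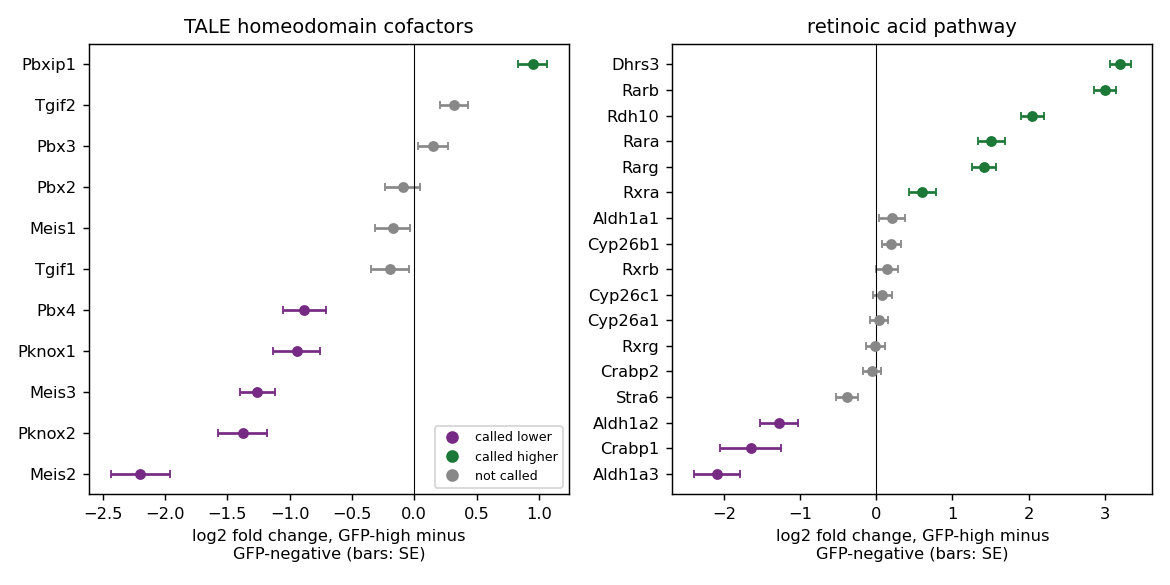
Log2 fold change (GFP-high minus GFP-negative, horizontal axis) of the measured TALE cofactors and retinoic acid pathway genes. Bars are standard errors with n = 3 arrays per group, and colours show the calls. Rarb, Dhrs3 and Rdh10 of the retinoic acid pathway lie above 2, and Meis2 lies at -2.20.

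The caudal, ParaHox and Evx genes, which share ancestry with Hox genes or switch them on, had 0 of 8 called by limma in either direction. At an unadjusted p under 0.05, 1 was higher (Evx2, 0.43, adjusted p = 0.125), and 1 was called higher without moderation. Of the MLL and trithorax activators, 1 of 15 measured rose (6.67%) and 5 fell (33.3%), beside 13% and 17.0% of all genes, with a median of -0.21. Psip1, which tethers MLL complexes to chromatin, fell by 1.47 (adjusted p = 0.000509), and Kmt2a, the MLL gene itself, fell by 0.52 (adjusted p = 0.00573). Aff1, a partner of MLL in leukaemia fusions, rose by 0.88 (adjusted p = 0.000429). Of the Polycomb genes, 3 of 20 measured rose (15%) and 5 fell (25%), not far from the 13% and 17.0% of all genes, with a median of -0.14. Phc3 rose by 1.03 (adjusted p = 0.00049), and Phc1 and Cbx2, subunits of the same repressive complex family, fell by 0.88 (adjusted p = 0.00278) and 0.74 (adjusted p = 0.00228). Gmnn, a replication licensing inhibitor that also binds Polycomb and Hox proteins, rose by 1.33 (adjusted p = 4.02e-05).

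Promoter sequences were searched on both strands for AGGTCA, for TGGGAA (the core site of RBPJ, the DNA-binding partner of Notch), for CACGTG (a site of basic helix-loop-helix factors), for TGACAG (Meis) and for TGATTNAT (Hox with Pbx). RefSeq held 22 promoter entries for 20 of the 36 genes, and 3 of the 10 Hoxb genes. AGGTCA was in 5 of 22 Hox entries (22.7%) and 14% of all 32851 promoters of the same length. TGGGAA was in 4 (18.2%) and 21.6%, CACGTG in 4 (18.2%, all in Hoxd) and 6.02%, TGACAG in 2 (9.09%) and 15.9%, and TGATTNAT in 2 (9.09%) and 2.82%. Matches of this kind are descriptions of the letters in a short window. Of the 3 Hoxb promoters, Hoxb4 held AGGTCA and no other motif, as marked above, and Hoxb8 and Hoxb1 held none.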

How the data were processed

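The deposited values are log2 expression values that the authors made with RMA, per the submitters' processing notes, which equalises the distributions of arrays. The version of RMA is not named in the labels, and the log2 scale follows from the values (0.989 to 13.72). Of 41344 rows, 23520 name exactly 1 gene, and the row with the highest mean stood for each of 22179 genes. GFP-high was compared with GFP-negative in limma 3.58.1 (R 4.3.3, lmFit and eBayes, 4.50 prior and 4 residual degrees of freedom, no block), two-sided, adjusted by Benjamini-Hochberg over all genes. The script was tested on simulated data. A permutation of 3 against 3 arrays cannot go below 0.1 and was not used. The number of arrays limits the precision.

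Every called Hox gene, the pair with the largest change in each cluster, and up to 4 genes of each of 17 related or marker lists (208 places, 184 measured) were eligible to be named, as were those nearest the threshold. Genes added outside that rule after their values were seen are Hoxa5, Snx11, Cbx1, Ttll6, Calcoco2, Atp5g1, Hotair, Cyp26a1 and Cyp26b1. Values of lists without their highest gene, and the spread over all Hoxb genes, were also added after the data were seen. Members and lists were chosen with earlier results of these data known. Sequences are RefSeq's for GRCm38.p6. Symbols of all 36 genes matched RefSeq by Entrez identifier. Alternatives were other scalings, row choices, filters, moderation settings, array weights, a replicate block and leaving out each array.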

Additional observations from a re-analysis of the deposited data

How the results depend on the processing

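With 3 arrays per group, small changes near the floor carry the least certainty. Alternatives for single Hox genes covered the called genes, the pair with the largest change in each cluster, Hoxb1 and Hoxb9. Of these, 252 kept direction and call, 12 lost the call, 4 gained it and 0 changed direction. Direction was fixed in advance in the fits that left the fold change as it was. Those were the moderation settings, the replicate block, the low filter, the minimum change and the fits of every row. The number of Hox genes called lower (7) was 4 without moderation, where Hoxb4 (adjusted p = 0.0509), Hoxb6 (0.133), Hoxb7 (0.0554) and Hoxb8 (0.0905) lost their calls and Hoxc13 gained one, and 6 to 7 when an array was left out. The number called higher (2) was 1 without the lowest 30% of genes, 1 without moderation, 0 at a minimum change of 1 by construction, and 1 to 3 when an array was left out. The Hox median (0.13) was 0.038 without the lowest 30% of genes. Quantile normalization gave 0.11 for the Hoxa and 0.073 for the Hoxc median, and rows naming several genes moved the Hoxb median to -1.21. Leaving out an array gave 0.07 to 0.16 for the Hox median, 0.14 to 0.25 for Hoxa, -1.68 to -1.17 for Hoxb, 0.11 to 0.21 for Hoxc and 0.08 to 0.21 for Hoxd. Over all genes, a minimum change of 1 left 1249 of 2888 higher and 1335 of 3773 lower calls, and leaving out an array gave 2374 to 2734 and 2940 to 3382. Other causes of these shifts were not tested. Whether the replicate numbers pair the arrays is not stated in the labels. The deviations of same-numbered arrays over all genes correlated at 0.114, -0.0256 and -0.00159, and those of different-numbered arrays at -0.0732 to 0.0632. The value of 0.114, for replicate 1, was the highest of all. These values do not settle whether the arrays are paired, and the main fit treated them as unpaired. The replicate block gave 7 Hox genes lower and 2 higher and changed no Hox call, but it moved adjusted p-values both ways. The limma adjusted p went from 0.00635 to 0.000624 for Hoxb8, from 0.00231 to 0.000398 for Hoxb4 and from 0.282 to 0.136 for Hoxb9. It rose from 0.000237 to 0.000492 for Hoxb2 and from 0.0126 to 0.028 for Hoxc10.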
